A study of Homo sapiens with 12 samples.

Results

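The genes described here make the proteins that copy DNA and supply its building blocks. They are 46 genes chosen by name: origin licensing factors, helicase and polymerase subunits, the sliding clamp and its loader, enzymes of deoxynucleotide synthesis, and the cyclin E, E2F1 and chromatin assembly genes that act at the start of S phase. Each was read from the only probe set of the array that carries its symbol alone, so all 46 were measured, of 18417 genes in the table. RNA came from MDA-MB-231 cells, a human breast cancer line, of a bone-metastatic derivative titled 1833. The groups were cells carrying an HMGA2 shRNA (shHMGA2, 3 arrays), cells induced to express Tet1 (2 arrays), cells induced to express HOXA9 (2 arrays) and control cells (3 arrays). The shRNA was carried in a pLKO.1 lentiviral vector under puromycin. The Tet1 and HOXA9 lines carried pLVX-TRE3G constructs, a Flag-tagged Tet1 in the first, together with the Tet-On 3G regulator. They were kept in puromycin and G418 and grown in Tet System Approved serum. The labels name no vector or treatment for control, and they do not say whether a line was 1 clone or a pool. HMGA2 binds AT-rich DNA and shapes chromatin. TET1 is an enzyme that oxidises methylated cytosine. HOXA9 belongs to the homeobox family of transcription factors.

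Replication starts when the origin recognition complex, CDC6 and CDT1 load the MCM2 to MCM7 ring onto DNA. CDC45 and the GINS complex then turn this ring into the moving helicase. Polymerase alpha and primase begin each strand, polymerases epsilon and delta extend it on the PCNA clamp, which RFC loads, and RPA covers the single strands. Many of these genes are known targets of E2F transcription factors, which retinoblastoma-family proteins restrain until cells commit to S phase, so their RNA is commonly read as a sign of proliferation. In RNA from a whole culture, fewer cells in S phase and less RNA per cell cannot be told apart.

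The deposited columns titled replicate 3 of Tet1 and of HOXA9 equal the mean of replicates 1 and 2 in all 33297 probe sets and were not counted. Correlations between arrays were 0.945 to 0.966 between the control and shHMGA2 arrays and the Tet1 and HOXA9 arrays, and at least 0.986 within each of these sets. The source names of Tet1 and HOXA9 give 1834 where the titles give 1833. Array set, as read from these correlations, subline number, serum and selection cannot be told apart from the constructs in any comparison of Tet1 or HOXA9 with control. Vector and puromycin likewise cannot be told apart from the HMGA2 shRNA in shHMGA2 against control, for which the labels name neither. The median gene was 0.25 higher on the log2 scale in Tet1 than in control and 0.24 higher in HOXA9. Of the targeted genes, the probe set shared by ELAC2 and HMGA2 was at 8.81 ± 0.29 in shHMGA2 (n = 3), 10.42 ± 0.01 in Tet1 (n = 2), 10.41 in HOXA9 (n = 2) and 9.56 ± 0.09 in control (n = 3; log2, mean ± SD). TET1 was at 8.97 ± 0.29 in shHMGA2, 7.07 ± 0.13 in Tet1, 7.30 ± 0.14 in HOXA9 and 6.56 ± 0.105 in control. The measured TET1 transcript was thus highest in shHMGA2. It was lower in the arrays labelled Tet1 than in those labelled HOXA9, a difference that was not tested, and above control in both. This goes against the Tet1 label only if the probe set reads the Tet1 construct, which was not tested either. Every direction given for Tet1 below is that of the arrays with this label. No probe set with HOXA9 as its only symbol was found, so the HOXA9 transcript was not analysed here and the HOXA9 label was not checked. The labels call the arrays biological replicates without naming separate cultures, so p-values measure only the spread between these samples. VIM, CD44, EGFR, CAV1 and MET, markers of this cell type, averaged 11.99 to 12.46 in every array. ESR1, PGR, ERBB2, CDH1 and GATA3, not high in such cells, averaged 6.75 to 7.06, with ERBB2 highest (8.92 in control). Against control, 3 of the 5 high markers were lower in each of Tet1 and HOXA9 (limma adjusted p under 0.05), and 2 and 1 were higher. Of the markers not high, 3 and 2 were higher and 1 was lower in each. Over all genes, 53.9% and 54% were higher and 23.2% and 21.6% lower.

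Most replication genes lay below control in Tet1 and in HOXA9, and part of them lay above it in shHMGA2. Relative to each gene's control mean, the median of the 46 genes was -0.49 and -0.48 in the Tet1 arrays and -0.49 and -0.41 in the HOXA9 arrays (log2). It was 0.12, 0.04 and 0.06 in the shHMGA2 arrays and between -0.01 and 0.02 in the control arrays. Every Tet1 and HOXA9 array therefore had a lower median than every shHMGA2 and control array, although single genes ran from -1.56 to 0.68 within these 4 arrays.

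**Figure D1:**
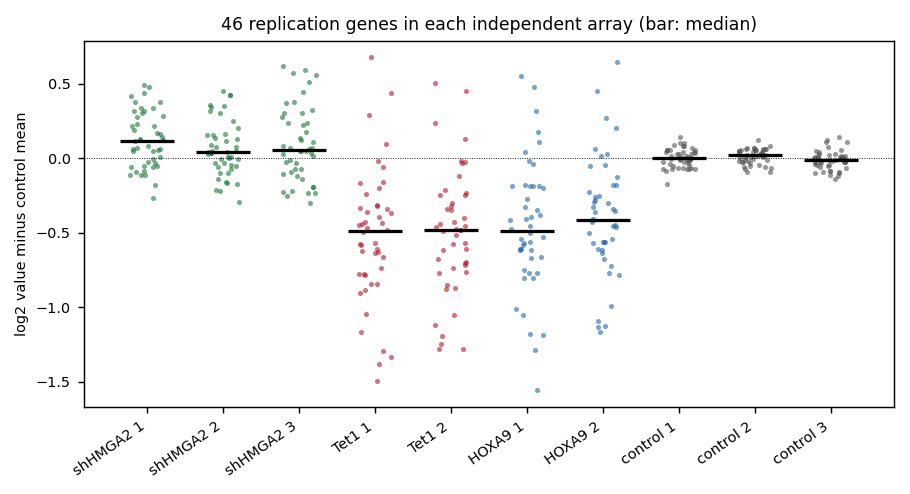
Each point is 1 of the 46 replication genes in 1 array, as its log2 value minus the mean of that gene in the 3 control arrays, and each bar is the median of the 46. The medians of the 4 Tet1 and HOXA9 arrays lie between -0.49 and -0.41, those of the shHMGA2 arrays between 0.04 and 0.12, and a few genes lie above 0 in every Tet1 and HOXA9 array.

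The promoters of these genes were searched for short sequence words. Many of the genes are known E2F targets, so a high share of E2F words is not independent of their choice. The promoters they were compared with were not matched for base composition. RefSeq promoters (GRCh38.p14, 250 bases before to 50 after the gene start) were matched for 38 of the 46 genes. They were searched on both strands for the E2F word, TTT followed by a pair of bases that are each C or G and then CGC, and for the CCAAT box, CCAAT. The E2F word was found in 18 of 38 replication gene promoters (47.4%), against 3.33% of 27305 RefSeq promoters of the same length and 4.52% of the 14239 that belong to genes tested on the array. The CCAAT box was in 21 of 38 (55.3%), against 35.7% of all promoters and 36.3% of those of tested genes. The GC box GGGCGG was in 28 of 38 (73.7%), against 44.6% of all and 60% of those of tested genes. The cell cycle homology region TTTGAA, a motif known from mitotic genes, was in 1 of 38 (2.63%), against 15.4% and 11.9%. In the 250 bases before the start alone, the E2F word was in 13 of 38 (34.2%), against 2.79% of all promoters and 3.75% of those of tested genes. Of 25 E2F words in the 18 promoters, 17 began within 60 bases of the gene start. The CCAAT box and GC box are short and common, and the words were read as letters only, not as bound sites.

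The promoters below are those of the 4 genes with the lowest mean log2 fold change in Tet1 and HOXA9 (DSCC1 left out), of LIG1, which was highest in both, of POLA1, which was highest in shHMGA2, and of MCM6, which holds the most E2F words. They are written 5′ to 3′ on the strand of the gene, and capitals mark E2F words and CCAAT boxes on either strand. CDC6 lies at chr17:40287629-40287928 (plus strand), CHAF1B at chr21:36385142-36385441 (plus), GINS1 at chr20:25407423-25407722 (plus), GINS2 at chr16:85688905-85689204 (minus), LIG1 at chr19:48170295-48170594 (minus), POLA1 at chrX:24693668-24693967 (plus) and MCM6 at chr2:135876394-135876693 (minus).
CDC6: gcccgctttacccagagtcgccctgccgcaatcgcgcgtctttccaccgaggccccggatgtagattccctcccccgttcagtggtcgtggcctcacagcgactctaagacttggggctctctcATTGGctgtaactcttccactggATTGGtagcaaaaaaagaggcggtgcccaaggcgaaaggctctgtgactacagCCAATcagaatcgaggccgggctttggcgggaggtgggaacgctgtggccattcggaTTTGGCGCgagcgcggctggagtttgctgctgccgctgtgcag
CHAF1B: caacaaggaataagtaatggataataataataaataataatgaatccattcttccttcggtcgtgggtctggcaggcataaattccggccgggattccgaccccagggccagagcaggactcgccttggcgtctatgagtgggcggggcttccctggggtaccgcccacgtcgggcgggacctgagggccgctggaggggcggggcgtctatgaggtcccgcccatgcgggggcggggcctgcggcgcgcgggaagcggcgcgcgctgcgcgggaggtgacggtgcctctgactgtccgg
GINS1: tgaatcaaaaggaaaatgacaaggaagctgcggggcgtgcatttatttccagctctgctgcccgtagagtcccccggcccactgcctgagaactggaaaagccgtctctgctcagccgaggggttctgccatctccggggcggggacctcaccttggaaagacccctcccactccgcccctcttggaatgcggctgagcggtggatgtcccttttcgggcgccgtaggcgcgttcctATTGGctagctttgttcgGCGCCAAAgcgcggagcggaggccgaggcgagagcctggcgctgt
GINS2: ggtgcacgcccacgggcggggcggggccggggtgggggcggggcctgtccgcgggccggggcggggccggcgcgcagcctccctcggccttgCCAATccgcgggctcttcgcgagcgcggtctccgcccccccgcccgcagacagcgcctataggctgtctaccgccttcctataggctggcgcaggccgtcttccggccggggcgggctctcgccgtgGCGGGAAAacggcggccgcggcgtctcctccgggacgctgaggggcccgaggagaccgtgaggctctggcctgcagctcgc
LIG1: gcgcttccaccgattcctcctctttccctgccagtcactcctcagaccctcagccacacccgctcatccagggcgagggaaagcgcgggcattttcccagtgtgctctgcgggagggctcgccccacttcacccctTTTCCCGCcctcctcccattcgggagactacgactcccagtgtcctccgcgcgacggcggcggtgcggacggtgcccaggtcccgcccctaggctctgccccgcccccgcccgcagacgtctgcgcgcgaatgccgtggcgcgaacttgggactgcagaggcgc
POLA1: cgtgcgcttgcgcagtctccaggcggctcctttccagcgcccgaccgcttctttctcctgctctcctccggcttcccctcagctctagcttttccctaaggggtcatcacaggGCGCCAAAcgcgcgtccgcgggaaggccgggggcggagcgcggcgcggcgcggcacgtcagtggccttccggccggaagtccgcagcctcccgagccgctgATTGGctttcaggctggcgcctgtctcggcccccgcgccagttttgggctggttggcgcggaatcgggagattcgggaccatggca
MCM6: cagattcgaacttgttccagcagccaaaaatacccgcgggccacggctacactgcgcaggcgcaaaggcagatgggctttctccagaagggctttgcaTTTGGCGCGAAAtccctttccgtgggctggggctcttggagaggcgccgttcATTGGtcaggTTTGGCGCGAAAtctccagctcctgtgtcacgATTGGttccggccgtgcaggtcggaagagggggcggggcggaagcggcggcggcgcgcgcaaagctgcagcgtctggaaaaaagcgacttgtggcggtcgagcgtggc

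CDC6 holds 1 E2F word just after the start and 3 CCAAT boxes before it. GINS1 and GINS2 each hold 1 E2F word within 60 bases of the start and 1 CCAAT box. CHAF1B holds neither word and 6 GC boxes. LIG1 holds 1 E2F word, which begins at position -114 from the start, and no CCAAT box. POLA1 holds 1 E2F word, at position -137, and 1 CCAAT box. MCM6 holds 4 E2F words, which overlap in pairs on opposite strands, and 2 CCAAT boxes. The words were present both in genes that fell and in LIG1, which rose. Of the 18 genes with the word, 17 were called lower in Tet1, 15 in HOXA9 and 0 in shHMGA2, where 8 were higher. Of the 20 without it, 15, 15 and 0 were lower, and 2 were higher in shHMGA2. Over all genes tested, 23.2%, 21.6% and 12.6% were lower in Tet1, HOXA9 and shHMGA2, and 13.6% higher in shHMGA2. The median log2 fold change in shHMGA2 was 0.12 with the word and 0.05 without it. Genes without a matched promoter, RPA2 and RPA3 among them, are in neither count. Whether the calls differ with the word was not tested.

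**Figure D2:**
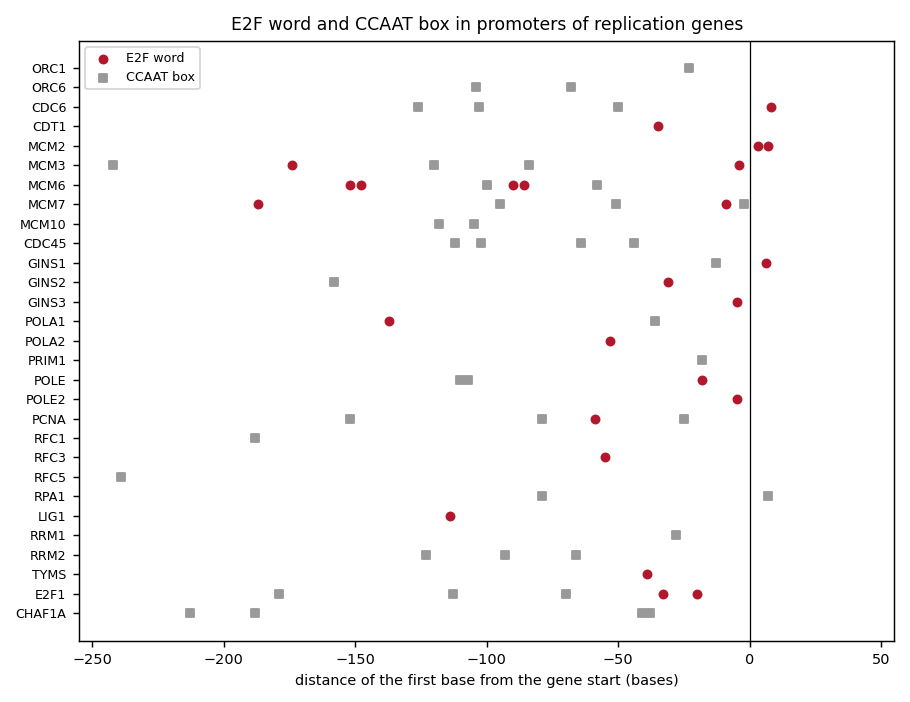
Positions of the E2F word (circles) and the CCAAT box (squares) in the promoters that hold either, by gene, as the distance in bases from the gene start, with negative values before it. Most E2F words lie close to the start, 17 of 25 within 60 bases, while CCAAT boxes are spread over the window before it.

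Tet1 and HOXA9 were each set against control to find genes that respond to them. Most replication genes fell in both, led by CDC6 (2.58-fold in Tet1 and 2.50-fold in HOXA9), DSCC1, CHAF1B, the GINS subunits and POLE, while LIG1, RPA2 and RPA3 rose. In Tet1, 38 of 46 were called lower and 3 higher, at a limma adjusted p under 0.05. In HOXA9, 36 were lower and 4 higher. Over all genes tested, 23.2% were called lower in Tet1 and 21.6% in HOXA9, and 53.9% and 54% higher, so 77.1% and 75.7% were called in either direction. The Tet1 arrays did not overlap control in 43 of the 46 genes and the HOXA9 arrays in 41. That share was not computed over all genes, so these counts do not set the replication genes apart from other genes. Calls moved with the level on the array: of 7615 genes with a control mean within the range of the 46, 44.5% were lower in Tet1 and 41.6% in HOXA9. The median replication gene stood at -0.50 in Tet1 and -0.43 in HOXA9, against -0.12 and -0.09 for genes in that range. After 1 quantile normalization over all arrays, 38 were lower and 3 higher in Tet1 and 36 and 3 in HOXA9, against 33.3% and 34% of all genes lower. With equal array medians, 44 and 43 were lower and 0 higher, against 51.4% and 51.1%. The median replication gene was then at -0.96 in Tet1 and -0.89 in HOXA9, and the median of all genes at -0.22 and -0.21.

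**Figure D3:**
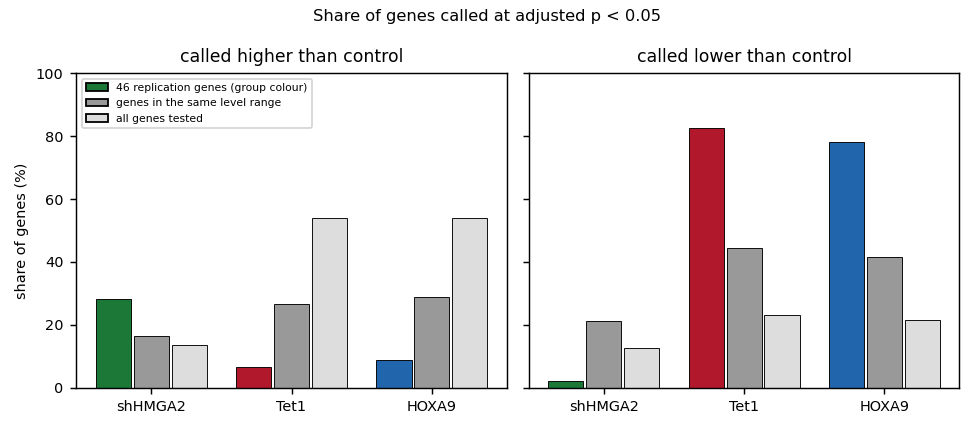
Share of genes (%) called higher (left) or lower (right) than control at adjusted p under 0.05 in shHMGA2, Tet1 and HOXA9, for the 46 replication genes, the 7615 genes in the same level range and all 18417 genes. The replication genes exceed both backgrounds among lower calls in Tet1 and HOXA9, and among higher calls in shHMGA2.

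Among the genes listed under origin licensing, MCM10 included, 10 of 11 fell in Tet1 and 9 in HOXA9. CDC6, the ATPase that helps load the MCM ring, was at 10.28 and 10.53 in the Tet1 arrays and 10.22 and 10.68 in the HOXA9 arrays, against 11.80, 11.74 and 11.79 in control. All 4 arrays were lower than all control arrays, by 1.37 in Tet1 and 1.32 in HOXA9 (log2, SE 0.12 each, adjusted p = 8.6e-07 and 1.3e-06). The HOXA9 arrays differed from each other more for CDC6 than for any other gene named in this paragraph. MCM10, a scaffold that helps the helicase start, read 9.71 and 9.61 in Tet1 and 9.71 and 9.64 in HOXA9, against 10.37, 10.35 and 10.23 in control (log2 fold changes -0.66 and -0.64). MCM3, a ring subunit, read 10.93 and 10.99 in Tet1 and 11.10 and 11.09 in HOXA9, against 11.63, 11.61 and 11.42 in control. ORC1, the ATPase of the origin recognition complex, read 8.50 and 8.37 in Tet1 and 8.58 and 8.58 in HOXA9, against 8.94, 9.04 and 8.97 in control. CDT1, the partner of CDC6 in loading, read 8.32 and 8.34 in Tet1 and 8.20 and 8.36 in HOXA9, against 8.74, 8.86 and 8.83 in control. In none of these 4 genes did the Tet1 or HOXA9 arrays overlap control, and the falls were -0.59, -0.55 and -0.48 in Tet1 and -0.46, -0.41 and -0.54 in HOXA9 for MCM3, ORC1 and CDT1.

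The rest of the ring also fell in Tet1, and all but MCM6 fell in HOXA9. MCM4, MCM7, MCM5 and MCM2 were at -0.53, -0.46, -0.45 and -0.32 in Tet1 and -0.39, -0.35, -0.43 and -0.23 in HOXA9 (log2 fold changes), all called lower. MCM6 was the exception, at 9.08 and 9.21 in Tet1 and 9.36 and 9.39 in HOXA9, against 9.38, 9.31 and 9.28 in control. Its fall in Tet1 (-0.18, adjusted p = 0.028) was not called without control replicate 1 (-0.15, adjusted p = 0.083) or without Tet1 replicate 1 (-0.12, adjusted p = 0.24). In HOXA9 it did not pass (log2 fold change 0.05, 95% confidence interval -0.10 to 0.20), and with equal array medians it was at -0.41. The fall of MCM2 in HOXA9 was not called without HOXA9 replicate 1 (-0.18, adjusted p = 0.11). ORC6, a small subunit of the origin recognition complex, did not pass in either (-0.04 and 0.00, adjusted p = 0.64 and 0.98), but was called lower in both after quantile normalization (-0.23 and -0.20, adjusted p = 0.013 and 0.027) and with equal array medians (-0.51 and -0.46, adjusted p = 0.00011 and 0.00028).

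All 5 genes listed under helicase activation fell in both groups. GINS2 read 9.59 and 9.72 in Tet1 and 9.90 and 9.93 in HOXA9, against 10.89, 11.04 and 10.82 in control, a 2.4-fold and a 2.00-fold fall (log2 -1.26 and -1.0, SE 0.07 each). GINS1 read 9.62 and 9.67 in Tet1 and 9.61 and 9.66 in HOXA9, against 10.77, 10.82 and 10.75 in control. GINS3 read 8.33 and 8.31 in Tet1 and 8.40 and 8.61 in HOXA9, against 9.12, 9.11 and 9.29 in control. In each, the highest of the 4 arrays was below the lowest control array. GINS4 was at -0.75 and -0.58. CDC45, which joins GINS and the ring in the active helicase, had the smallest fall of the 5, at -0.45 and -0.36. The 4 GINS subunits, which form 1 complex, had a median log2 fold change of -1.0 in Tet1 and -0.84 in HOXA9, and the 6 ring subunits MCM2 to MCM7 one of -0.45 and -0.37.

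Of 8 polymerase and primase genes, 8 fell in Tet1 and 7 in HOXA9. POLE, the catalytic subunit of polymerase epsilon, which copies the leading strand, read 8.67 and 8.66 in Tet1 and 8.66 and 8.93 in HOXA9, against 9.75, 9.70 and 9.69 in control. It fell 2.07-fold and 1.89-fold (log2 -1.05 and -0.92, SE 0.08 each). PRIM1, the catalytic primase subunit, read 9.65 and 9.72 in Tet1 and 9.63 and 9.83 in HOXA9, against 10.46, 10.50 and 10.35 in control. POLA2, the regulatory subunit of polymerase alpha, read 8.70 and 8.63 in Tet1 and 8.56 and 8.73 in HOXA9, against 9.51, 9.27 and 9.32 in control. These 3 genes did not overlap control in any array. PRIM2, the large primase subunit, and POLE2 were at -0.57 and -0.57 in Tet1 and -0.58 and -0.47 in HOXA9. POLD1, the catalytic subunit of polymerase delta, and its partner POLD3 fell less, at -0.36 and -0.34 in Tet1 and -0.33 and -0.21 in HOXA9. Without HOXA9 replicate 2, POLD3 was not called (-0.20, adjusted p = 0.057). POLA1, the catalytic subunit of polymerase alpha, fell by 0.30 in Tet1 and did not pass in HOXA9 (log2 fold change -0.12, 95% confidence interval -0.28 to 0.04).

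Among the clamp, its loaders and RPA, the members parted. DSCC1, a subunit of the alternative loader built around CHTF18, read 8.05 and 8.15 in Tet1 and 8.15 and 8.30 in HOXA9, against 9.45, 9.49 and 9.37 in control (log2 fold changes -1.33 and -1.21, adjusted p = 3.4e-08 and 7.2e-08). RFC2 read 10.24 and 10.17 in Tet1 and 10.25 and 10.25 in HOXA9, against 10.98, 11.04 and 11.05 in control. RFC3 read 10.95 and 10.96 in Tet1 and 11.06 and 11.16 in HOXA9, against 11.65, 11.79 and 11.74 in control. The small loader subunits RFC2 to RFC5 thus all fell, RFC5 and RFC4 by 0.66 and 0.51 in Tet1 and by 0.59 and 0.52 in HOXA9. RFC1, the large subunit, read 10.58 and 10.62 in Tet1 and 10.66 and 10.69 in HOXA9, against 10.42, 10.54 and 10.50 in control. It was called higher in HOXA9 (0.19, adjusted p = 0.013) but not without HOXA9 replicate 2 (0.18, adjusted p = 0.054). With equal array medians it was called lower, at -0.27 in HOXA9 and -0.35 in Tet1 (adjusted p = 0.0023 and 0.00028). In Tet1 it did not pass as higher (0.11, adjusted p = 0.11) except after quantile normalization (0.22, adjusted p = 0.0055) and with all columns counted. PCNA, the clamp, fell by 0.22 in Tet1 and 0.18 in HOXA9, and neither call was made after quantile normalization (-0.11 and -0.10, adjusted p = 0.21 and 0.24). In Tet1 the call was also lost without Tet1 replicate 2 (-0.20, adjusted p = 0.083), and in HOXA9 without any 1 of the 5 arrays compared (-0.19 to -0.18, adjusted p = 0.055 to 0.1).

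RPA is built from a large, a middle and a small subunit, and their RNAs did not move together. RPA1, the large subunit, fell by 0.32 in Tet1 and 0.24 in HOXA9. RPA3, the small subunit, read 8.69 and 8.71 in Tet1 and 8.74 and 8.71 in HOXA9, against 8.34, 8.20 and 8.23 in control. RPA2 read 8.80 and 8.75 in Tet1 and 8.83 and 8.78 in HOXA9, against 8.55, 8.42 and 8.56 in control. Both were higher than control in all 4 arrays, RPA3 by 0.44 and 0.47 and RPA2 by 0.26 and 0.29. The median gene of all was itself 0.25 and 0.24 higher, and these rises depended on scaling. With equal array medians RPA3 was at -0.02 in Tet1 and 0.01 in HOXA9 and RPA2 at -0.20 and -0.16, and after quantile normalization RPA2 did not pass (0.11 and 0.12, adjusted p = 0.17 and 0.13).

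LIG1, the ligase that seals Okazaki fragments, read 9.29 and 9.11 in Tet1 and 9.16 and 9.26 in HOXA9, against 8.64, 8.65 and 8.55 in control. It was the highest of the 46 genes in both comparisons (0.59 and 0.60, SE 0.08 each, adjusted p = 2.4e-05 in each), and with equal array medians it stayed above control without passing (0.12 and 0.14, adjusted p = 0.21 and 0.15). FEN1, the flap nuclease that acts just before LIG1, did not pass in either (-0.03 and -0.01, 95% confidence intervals -0.19 to 0.13 and -0.17 to 0.15).

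Of the nucleotide supply genes, 3 of 4 fell in each group. TYMS, thymidylate synthase, read 11.18 and 11.15 in Tet1 and 11.34 and 11.35 in HOXA9, against 11.84, 11.97 and 11.93 in control. TK1, the thymidine kinase of the salvage route, read 10.42 and 10.40 in Tet1 and 10.32 and 10.32 in HOXA9, against 10.71, 10.95 and 10.99 in control. RRM1, the large subunit of ribonucleotide reductase, read 11.50 and 11.57 in Tet1 and 11.63 and 11.54 in HOXA9, against 11.78, 11.88 and 11.78 in control. All 3 were lower than control in every array, at -0.75, -0.48 and -0.28 in Tet1 and -0.57, -0.57 and -0.23 in HOXA9. RRM2, the S-phase subunit of the same reductase, did not pass (-0.19 and -0.12, adjusted p = 0.066 and 0.24).

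The genes of the G1 to S switch fell in both groups. CCNE1, a cyclin that activates CDK2, read 7.77 and 7.80 in Tet1 and 7.93 and 7.96 in HOXA9, against 8.75, 8.73 and 8.56 in control. CCNE2, the second cyclin E, read 10.17 and 10.32 in Tet1 and 10.48 and 10.69 in HOXA9, against 11.12, 11.02 and 10.92 in control. E2F1, an activating E2F factor, read 9.28 and 9.25 in Tet1 and 9.28 and 9.42 in HOXA9, against 9.73, 9.65 and 9.65 in control. No array of either group reached the control range in these 3 genes, and the log2 fold changes were -0.89, -0.77 and -0.41 in Tet1 and -0.74, -0.43 and -0.33 in HOXA9.

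CHAF1A and CHAF1B are subunits of chromatin assembly factor 1, which places histones on new DNA. CHAF1B read 8.44 and 8.46 in Tet1 and 8.55 and 8.58 in HOXA9, against 9.78, 9.80 and 9.64 in control, a 2.44-fold and 2.26-fold fall (adjusted p = 5.3e-08 and 1.1e-07). CHAF1A read 9.10 and 9.12 in Tet1 and 9.19 and 9.08 in HOXA9, against 9.50, 9.48 and 9.60 in control, and it also fell (-0.42 and -0.39). SLBP, which binds the stem loop of histone mRNA, did not pass (-0.10 and -0.01, adjusted p = 0.2 and 0.93).

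**Figure D4:**
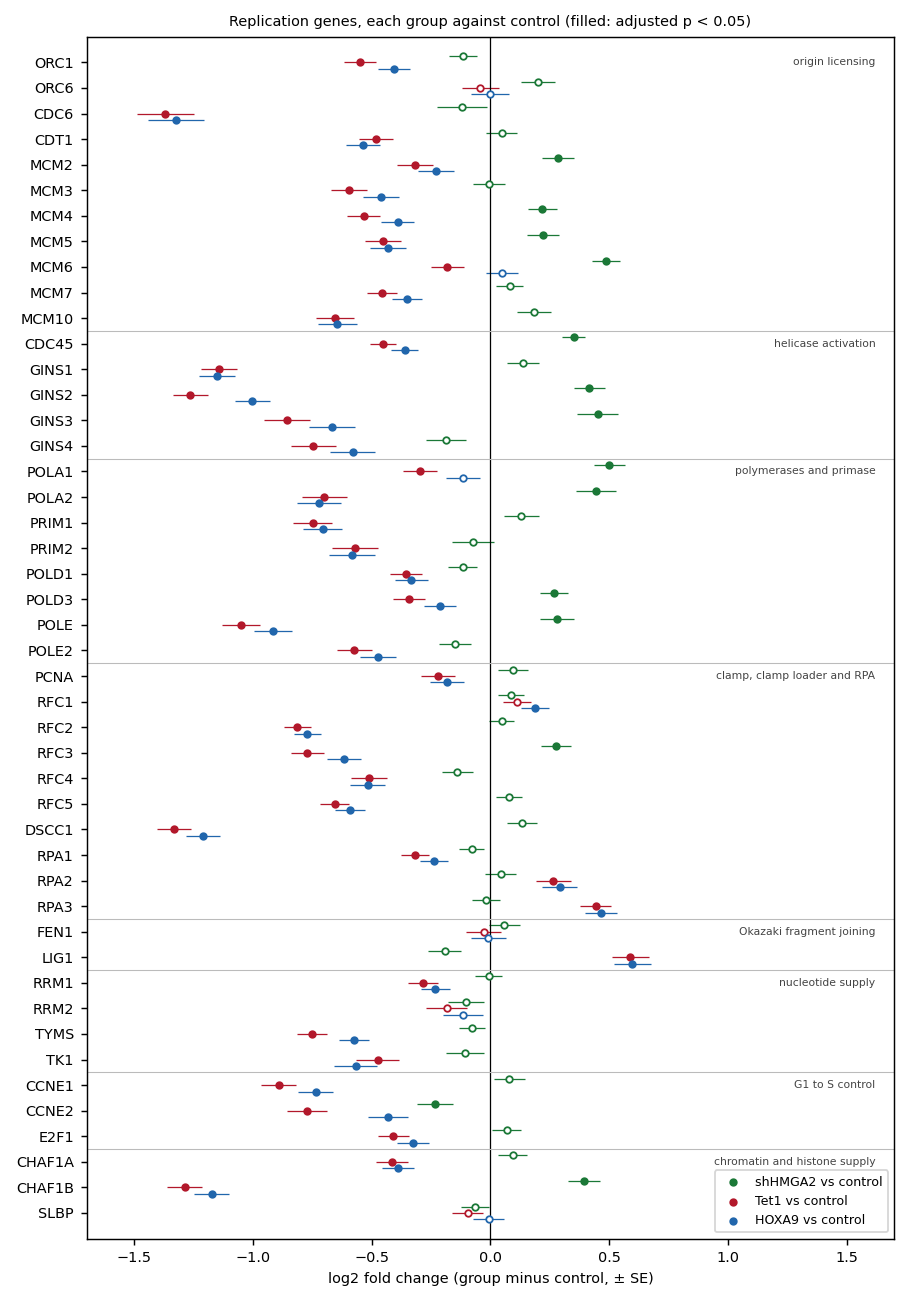
Log2 fold change against control (x axis, ± SE) of each of the 46 replication genes (rows, grouped by role) in shHMGA2, Tet1 and HOXA9, with filled points for adjusted p under 0.05. The Tet1 and HOXA9 points lie left of 0 for most genes, with LIG1, RPA2 and RPA3 to the right, and the filled shHMGA2 points lie right of 0 except CCNE2.

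Other genes of the same processes fell as well. Of 27 other origin and fork factors, 22 were lower and 4 higher in Tet1 and 18 lower and 3 higher in HOXA9. MCM8, a helicase related to the ring, was at -1.81 and -1.66, and TICRR, which helps bring CDC45 to origins, at -1.75 and -1.56 (log2 fold changes in Tet1 and HOXA9). Of 19 other nucleotide synthesis enzymes, 11 were lower in each group, and 2 were higher in Tet1 and 3 in HOXA9. CAD, which starts pyrimidine synthesis, was at -1.25 in both, and SAMHD1, which degrades deoxynucleotides, at -1.26 and -1.14. Of 24 E2F and G1 to S regulators, 17 were lower and 3 higher in Tet1 and 15 and 3 in HOXA9. SKP2, a ubiquitin ligase subunit that targets the CDK inhibitor CDKN1B, was at -1.65 and -1.47, and the repressor E2F8 at -1.62 and -1.35. Of 8 replication-coupled chromatin genes, 6 were lower in each group, with the histone chaperone ASF1A at -1.26 and -1.33 and FAM111A at -0.99 and -0.84, and 1 and 2 were higher. Among 19 mitosis genes, Tet1 had 16 and HOXA9 had 13 below control and 0 above, with CDC20, which turns on the anaphase-promoting complex, at -1.74 and -1.60 and the mitotic kinase AURKB at -1.34 and -1.42. Falls were thus measured among replication and mitosis genes alike, and whether they differ in size was not tested. Between 57.9% and 84.2% of a list was lower in Tet1 and between 57.9% and 75% in HOXA9. Over all genes tested, 23.2% and 21.6% were lower, and in the level range of the replication genes 44.5% and 41.6%. Whether the lists differ from these shares was not tested.

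Markers of other cells were read in the same arrays, where 53.9% of all genes were called higher in Tet1 and 54% in HOXA9. Of 9 kidney line genes, 6 were higher in Tet1 and 5 in HOXA9, near those shares. Of CDKN2A and MTAP, which MDA-MB-231 is known to lack, 0 were higher in either group. Their median log2 fold change was -0.20 in Tet1, with 0 lower, and -0.23 in HOXA9, with 1 lower. In each of Tet1 and HOXA9, 6 of 7 fibroblast genes, 4 of 4 leukocyte genes and 3 of 4 endothelial genes were higher. NEFL and, in HOXA9, WT1 were lower among the kidney line genes, and KDR among the endothelial genes. Over all probe sets, the lower quartile was 5.75 in control and 6.24 in both Tet1 and HOXA9 (log2). The median over probe sets was 7.23 in control, 7.69 in Tet1 and 7.68 in HOXA9, so dim values were higher in general. The mean log2 level of the kidney line list was 7.09 to 7.15 in Tet1 and 6.98 to 7.11 in HOXA9, against 6.59 to 6.69 in control. The mean log2 level of the fibroblast list was 7.41 in both Tet1 arrays and 7.14 to 7.16 in HOXA9, against 6.46 to 6.53 in control. That of the leukocyte list was 6.54 to 6.59 in Tet1 and 6.46 to 6.50 in HOXA9, against 6.09 to 6.21 in control. That of the endothelial list was 7.11 in both Tet1 arrays and 6.93 to 7.07 in HOXA9, against 6.46 to 6.50 in control. These lists hold dim genes, among them PTPRC, the defining leukocyte marker, whose group means of 4.89 to 5.22 all fell short of the 30th percentile over probe sets (6.26), and array values have no 0. Their part in the falls was not tested.

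Cells with the HMGA2 shRNA were set against control to find genes that respond to it. In shHMGA2, 13 of 46 replication genes were higher and 1, CCNE2, lower (limma adjusted p under 0.05), while 13.6% of all genes tested were called higher and 12.6% lower (26.2% in either direction). Of the 7615 genes in the same level range 16.6% were higher and 21.2% lower. The rises were small, at most 1.41-fold, and, apart from RFC3 and CHAF1B, lay among the ring, helicase and polymerase genes. None of the 4 nucleotide supply genes passed. The median of the 46 was 0.08, against -0.03 for all genes (log2). The shHMGA2 and control arrays did not overlap in 26 of the 46. The share over all genes was not computed, so this count does not set the 46 apart.

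POLA1 read 9.98, 9.91 and 10.09 in shHMGA2, against 9.49, 9.51 and 9.48 in control. Its lowest shHMGA2 array stood above its highest control array, with a difference of 0.50 (SE 0.07, adjusted p = 0.00019). POLA2, its partner subunit, read 9.84, 9.67 and 9.92 in shHMGA2, against 9.51, 9.27 and 9.32 in control (0.44, adjusted p = 0.0022). POLE read 10.05, 9.92 and 10.01 in shHMGA2, against 9.75, 9.70 and 9.69 in control (0.28, adjusted p = 0.012). The groups did not overlap in either. POLD3 was also higher (0.27). PRIM1, PRIM2, POLD1 and POLE2 did not pass (0.13, -0.07, -0.12 and -0.15, adjusted p = 0.13 to 0.6).

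Of the genes listed under licensing, 4 of 11 rose, all of them ring subunits. MCM6 read 9.76, 9.78 and 9.90 in shHMGA2, against 9.38, 9.31 and 9.28 in control, and MCM2 read 9.89, 9.67 and 9.83 in shHMGA2, against 9.56, 9.45 and 9.51 in control. Neither overlapped control (0.49 and 0.29, SE 0.06 and 0.07, adjusted p = 0.00014 and 0.0078). MCM4 read 10.70, 10.63 and 10.75 in shHMGA2, against 10.47, 10.45 and 10.50 in control, and MCM5 read 10.31, 10.14 and 10.23 in shHMGA2, against 10.10, 9.95 and 9.96 in control. MCM5 and MCM4 rose by 0.22 and 0.22, but each call was lost without any 1 of 4 arrays. For MCM4 these were control replicate 1 or 2 or shHMGA2 replicate 1 or 3 (0.19 to 0.22, adjusted p = 0.055 to 0.08), and for MCM5 control replicate 2 or 3 or shHMGA2 replicate 1 or 3 (0.18 to 0.22, adjusted p = 0.073 to 0.11). With equal array medians neither passed (0.19 each, adjusted p = 0.062 and 0.074). MCM3 and MCM7 did not pass (-0.01 and 0.08, adjusted p = 0.96 and 0.35), nor did CDC6, CDT1, ORC1, ORC6 and MCM10 (log2 fold changes -0.12 to 0.20, adjusted p = 0.06 to 0.66). Calls thus differed among the 6 subunits of the ring, and whether the subunits differ from each other was not tested.

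Of the helicase genes 3 of 5 rose. GINS3 read 9.59, 9.49 and 9.79 in shHMGA2, against 9.12, 9.11 and 9.29 in control (0.45, adjusted p = 0.0025). GINS2 read 11.30, 11.34 and 11.37 in shHMGA2, against 10.89, 11.04 and 10.82 in control (0.42, adjusted p = 0.00074). CDC45 read 10.31, 10.32 and 10.35 in shHMGA2, against 9.97, 9.99 and 9.98 in control (0.35, adjusted p = 0.00033). In all 3 the shHMGA2 arrays lay above the control arrays. GINS1 and GINS4 did not pass (0.14 and -0.19, adjusted p = 0.18 and 0.13).

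RFC3 was the only one of 10 clamp, loader and RPA genes to pass, at 11.94, 11.97 and 12.10 in shHMGA2, against 11.65, 11.79 and 11.74 in control (0.28, adjusted p = 0.0067). CHAF1B read 10.05, 10.09 and 10.25 in shHMGA2, against 9.78, 9.80 and 9.64 in control (0.39, adjusted p = 0.0011), and did not overlap. CHAF1A and SLBP did not pass (0.09 and -0.06). CCNE2 read 10.84, 10.72 and 10.79 in shHMGA2, against 11.12, 11.02 and 10.92 in control, the only call below control (-0.23, SE 0.08, adjusted p = 0.041). That call was lost without control replicate 1 or 2 or shHMGA2 replicate 2 or 3 (-0.24 to -0.18, adjusted p = 0.085 to 0.14). CCNE1 and E2F1 did not pass (0.08 and 0.07). LIG1 was at -0.19 (adjusted p = 0.063) and passed as lower after quantile normalization (-0.20, adjusted p = 0.041) and with equal array medians (-0.22, adjusted p = 0.045).

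**Figure D5:**
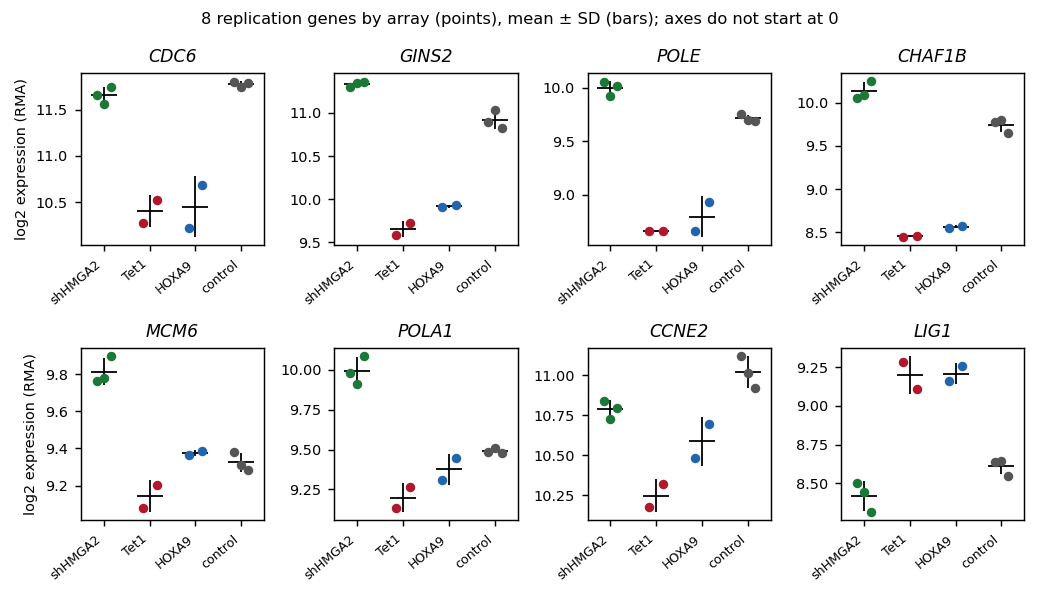
Log2 expression of 8 replication genes in each array of shHMGA2, Tet1, HOXA9 and control, with points for arrays and bars for the mean ± SD (n = 3, 2, 2 and 3); each panel has its own axis, which does not start at 0. CDC6, GINS2, POLE and CHAF1B are lower than control in every Tet1 and HOXA9 array, MCM6 and POLA1 are highest in shHMGA2, CCNE2 is lower than control in all other arrays, and LIG1 is highest in Tet1 and HOXA9.

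Of the 27 other origin and fork factors, 9 were higher and 1 lower in shHMGA2, with MCM9, a helicase related to the ring, at 0.57 and CDC7, the kinase that fires origins, at 0.52 (log2 fold changes). Of 19 other nucleotide enzymes, 6 were higher, led by PPAT (0.62) and HPRT1 (0.45) of purine synthesis and salvage, and 1 was lower. Of 24 E2F and G1 to S regulators, 6 were higher and 5 lower, with the retinoblastoma relative RBL2 at 0.71 and the phosphatase CDC25A, which activates CDK2, at 0.59. Of 8 chromatin genes 2 were higher and 1 lower, with the histone-binding RBBP4 at 0.38 and FAM111A at -0.42. Of 19 mitosis genes 0 were higher and 1, CDC20, lower (-0.25). Over all genes tested, 13.6% were higher and 12.6% lower, and in the level range of the replication genes 16.6% and 21.2%. The shares higher were 33.3%, 31.6%, 25%, 25% and 0% in the lists as ordered here. Lower calls among E2F and G1 to S regulators (20.8%) were near the share in that range, and those among chromatin genes (12.5%) near that of all genes. Whether the lists differ from these shares was not tested.

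In the shHMGA2 arrays, traits of the embryonic kidney line HEK293 and genes that MDA-MB-231 is known to lack were also higher. Of 9 kidney line genes, 5 were higher and 0 lower, while 13.6% of all genes tested were higher and 12.6% lower. The mean log2 level of the 9 was 7.42 to 7.63 in shHMGA2, against 6.59 to 6.69 in control. HOXD10 was at 4.47, NEFM at 1.65, NEFL at 1.17, CITED1 at 0.54 and WT1 at 0.25 (log2 fold changes). The rise of the mean thus rests most on HOXD10. CDKN2A and MTAP had a mean of 8.74 to 9.21 in shHMGA2, against 6.61 to 6.96 in control. PAX2, LHX1, CDH6 and TFAP2B did not pass, and array values have no 0. VIM, CD44, EGFR, CAV1 and MET, the markers of the line itself, averaged 11.99 to 12.21 in shHMGA2, against 12.41 to 12.46 in control, and 4 of 5 were called lower. The part of these markers in the rises of replication genes was not tested.

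The 3 comparisons share the control arrays, so their values stand side by side and are not independent. Of the 46 genes, 36 were called lower in both Tet1 and HOXA9, and 11 were also called higher in shHMGA2. Among these 11, CHAF1B was at 0.39 in shHMGA2, -1.29 in Tet1 and -1.17 in HOXA9, and GINS2 at 0.42, -1.26 and -1.0. CCNE2 was called lower in all 3 comparisons (-0.23, -0.77 and -0.43). These shares were not computed over all genes, and whether the directions are linked was not tested.

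Tet1 and HOXA9 arrays were also compared directly, within 1 array set, to see where the induced lines part. None of the 46 replication genes was called by limma, with 5 at an unadjusted p under 0.05, while 0.434% of all genes tested were called and 1687 of 18417 had such a p. Most values ran one way: 40 of 46 were below 0, with a median of -0.08, against 0.01 for all genes. Of the 7615 genes in the same level range, 60.25% were below 0, with a median of -0.03. CCNE2 had the lowest value, at 10.17 and 10.32 in Tet1, against 10.48 and 10.69 in HOXA9 (-0.34, 95% confidence interval -0.54 to -0.14, adjusted p = 0.2). GINS2 was at 9.59 and 9.72 in Tet1, against 9.90 and 9.93 in HOXA9 (-0.26, 95% confidence interval -0.44 to -0.08). MCM6 was at 9.08 and 9.21 in Tet1, against 9.36 and 9.39 in HOXA9 (-0.23, 95% confidence interval -0.39 to -0.07). The arrays did not overlap in these 3 genes, but the same held for 26 of the 46, and with 2 arrays in each group none passed. How many of all genes do not overlap was not computed, so this count does not set the 46 apart either. LIG1, RPA2 and RPA3 were at -0.01, -0.03 and -0.02, with 95% confidence intervals of -0.19 to 0.18, -0.20 to 0.15 and -0.18 to 0.14. Over the 46 genes the intervals ran from -0.54 to 0.31, so a difference of 1 on the log2 scale between the induced lines lay outside every interval. No gene of the 5 lists of related genes was called here either.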

How the data were processed

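RNA was hybridised to Affymetrix Human Gene 1.0 ST arrays. The deposited values are log2 expression. The submitters' processing notes name RMA and R 2.11 as the authors' tools. Precision is limited by how many arrays each group has. Of 33297 probe sets, 19460 carried 1 gene symbol in the platform annotation, 1754 several and 12083 were not listed. The probe set with the highest mean was kept per gene, which left 18417 genes (769 had several). Columns that equalled the mean of 2 others within 1e-06 were left out, leaving 10 independent arrays in 4 groups. All groups entered 1 limma model (lmFit, then eBayes, in limma 3.58.1 under R 4.3.3), with Benjamini-Hochberg adjustment over all genes and a threshold of 0.05. This fit was tested on simulated data without a general shift between groups, so that test does not cover the shifts seen here. Per-array values were given for up to 3 called genes with the largest change per role and comparison, and for genes called against the majority. Up to 2 genes per related list were named. The members and lists were chosen with earlier results of these data known. The comparison with genes of the same level range was added after seeing the data. Alternatives were quantile normalization, equal array medians, fits of 2 groups, all 12 columns, a filter at the 30th percentile (6.26), the mean over probe sets, a replicate block, eBayes with trend, leaving out each array in turn, and promoter windows of the bases before the start only. CENPA had no probe set of its own here.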

Additional observations from a re-analysis of the deposited data

How the results depend on the processing

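The number of replication genes called kept within 1.5 times under every alternative in the comparisons with control: 14 in shHMGA2 (13 to 17), 41 in Tet1 (40 to 44) and 40 in HOXA9 (39 to 43). Leaving out 1 array at a time gave 11 to 14 in shHMGA2, 40 to 41 in Tet1, 37 to 39 in HOXA9 and 0 in Tet1 against HOXA9. In that last comparison 4 genes (MCM6, GINS2, TYMS and CCNE2) were called lower when all 12 columns were counted, a setting that counts averages of the same arrays as further samples. With equal array medians, the sign turned for RFC1 (-0.35), RPA2 (-0.20) and RPA3 (-0.023) in Tet1 and for MCM6 (-0.41), RFC1 (-0.27) and RPA2 (-0.16) in HOXA9; this setting moved the median of all genes to -0.22 and -0.21, against 0.25 and 0.24 as deposited. ORC6, FEN1, RRM2 and SLBP were called lower in both groups under it, and POLA1 in HOXA9. Same-numbered arrays did not all deviate together (r of -0.184 to 0.168), so the numbers were not taken as pairs. With the replicate block, 15, 40, 39 and 0 genes were called in shHMGA2, Tet1, HOXA9 and Tet1 against HOXA9. CCNE2 in shHMGA2, MCM6 in Tet1 and PCNA in HOXA9 were not called then, and ORC6 and MCM10 were called in shHMGA2. Over the 250 bases before the start alone, the replication gene promoters with the E2F word fell to 13 of 38 (34.2%), against 2.79% of all promoters. The CCAAT box was then in 55.3%, against 33%, the homology region in 2.63%, against 13.6%, and the GC box in 71.1%, against 42.3%. No difference of Tet1 or HOXA9 from control, of any size, can be told apart from array set, subline number, serum and selection. Nor can a difference of shHMGA2 from control be told apart from vector and puromycin.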
